A study of Salmo salar with 59 samples.

Results

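The genes of the mitochondrial respiratory chain and of ATP synthase were followed in the testis, pituitary and adipose tissue of male Atlantic salmon post-smolts. Members were all array probes whose RefSeq transcript carries, in the gene table of assembly Ssal_v3.1, a symbol that starts with nduf, sdh, uqcr, atp5, cox and a digit, or cyc1. The rule found 58 probes for 57 of the 66 genes of the table with such a symbol, among 42386 probes on the array, of which 25420 had a gene in the table. One-colour 44K Agilent arrays were hybridised with RNA of 20 testes, 20 pituitaries and 19 adipose tissues from fish kept for 18 weeks in brackish water. Light was continuous in group A, increasing in group B and decreasing in groups D and E, and group E received a low-fat diet. Testes were pubertal (labelled stages III to V) in 6 fish, 184, 190 and 245 of group A and 202, 211 and 213 of group B. They were immature (Stage I) in 14 fish, of which 188 and 250 were kept in group A, 160 and 203 in group B, 5 in group D and 5 in group E. Every pubertal fish therefore came from groups A and B, so that maturity and light were partly confounded. The paper proposes that fish 160 and 250, immature here by testis stage, may be maturing by their plasma hormones and pituitary expression. Pituitary arrays carry the stage of the testis in their own labels, adipose arrays were assigned to a maturity by the testis of the same fish, and 1 adipose array of group E, whose fish number no testis of that group carried, entered only the light comparisons. The testis array titled group E, fish 226 carries a fish tag of 236, and the title was followed for its place in the order of gonad size and for its pairing with other organs. No sequence is shown, since no probe, transcript or protein sequence was among the material analysed here.

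The respiratory chain passes electrons from NADH (complex I) and succinate (complex II) through complex III to oxygen at complex IV, cytochrome c oxidase, and pumps protons across the inner mitochondrial membrane at complexes I, III and IV. ATP synthase, complex V, lets the protons return and makes ATP. A few subunits of complexes IV and V exist as isoforms from separate genes, and in mammals several of these are restricted to muscle, lung or testis. In the mammalian testis, meiotic and haploid germ cells depend on mitochondria for energy, and mitochondria are reshaped and gathered around the sperm flagellum, whereas Sertoli cells are known for glycolysis and lactate supply.

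Levels are log2 intensities relative to the 75th percentile of the array, and a difference of 1 is a change of 2-fold. A difference was called when limma gave a Benjamini-Hochberg adjusted p under 0.05 over all probes tested and its size passed 0.8, the log2-ER limit of the study, or 1.74-fold. The 75th percentile signal was 153 to 479 in testis, 98.7 to 615 in pituitary and 39.2 to 486 in adipose tissue, and 65.6 to 86.6%, 61.6 to 84.3% and 51.1 to 79.4% of spots stood well above background. Of the member probes, 6 were not well above background on at least 1 array, none was saturated, and 3 of 3422 values were missing. The array of fish 184 labelled pituitary stood apart. Its mean over 7 probes of pituitary hormones was -4.67, against 6.47 to 7.99 on the other pituitary arrays, and its profile correlated at 0.759 to 0.821 with adipose, 0.61 to 0.756 with testis and 0.699 to 0.75 with the other pituitary arrays. It was left out of the pituitary fits, and values with it are given where they differ. The adipose arrays A 250, B 202, B 211, E 233 and E 240 had lower median correlations with the other adipose arrays (0.869 to 0.91) than the rest (0.92 or above). Some adipose arrays carried markers of other tissues. Pituitary hormone probes averaged -0.998 on adipose array E 236 (at most -3.35 on the other adipose arrays), germ cell probes -0.27 and Sertoli and Leydig cell probes -1.90 on B 202 (at most -3.12 and -3.60 on the others), and muscle probes 1.55 on B 160 and 1.17 on B 202 (at most -0.98 on the others).

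Most respiratory chain genes were higher in pubertal than in immature testes, although with some scalings of the arrays fewer than 1 in 2 passed the test. Of 58 member probes, 41 were higher, 4 were lower and 13 were not called, where 31.9% of the 35614 probes tested were higher and 27.2% were lower. After quantile normalization 15 members were higher and 7 lower (28.3% and 28.1% of all probes), and in the processed values of the authors 25 and 7 (17.5% and 27% of all probes). The median log2 difference of the members was 1.13, against 0.29 over all probes. In 27 members all pubertal testes lay above all immature ones, and in 3 all lay below (12.9% and 12.1% of all probes). The 4 lower genes were 3 isoforms or small subunits of complex IV (cox4i1l, cox6b1 and cox5b2) and the ATP synthase inhibitor gene atp5if1b. In bulk tissue, fewer cells of a type and less RNA per cell cannot be told apart. Markers of other cells moved with maturity: 7 of 7 probes of Sertoli and Leydig cells were lower (list mean -0.70 to 0.48 in pubertal, 1.92 to 2.54 in immature testes), as were 8 of 9 leukocyte probes (-4.48 to -3.45 against -2.30 to -0.08), while 13 of 16 tested probes of meiosis and sperm were higher (0.80 to 2.42 against -0.91 to -0.31). Of 7 adipocyte probes 5 were lower and 1 higher (-1.90 to -0.75 against -0.26 to 0.01), and 2 of 3 erythrocyte probes (0.45 to 1.86 against -0.22 to 3.34) and 2 of 3 muscle probes (-2.71 to -1.11 against -1.91 to -0.74) were lower, the last pair of lists with overlapping ranges. Of the first 3 lists, all 7 Sertoli and Leydig cell probes and 15 to 16 of 17 meiosis and sperm probes were well above background on every testis array, and 4 to 9 of the leukocyte probes, and the part of cell composition in the differences below was not tested.

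**Figure D1:**
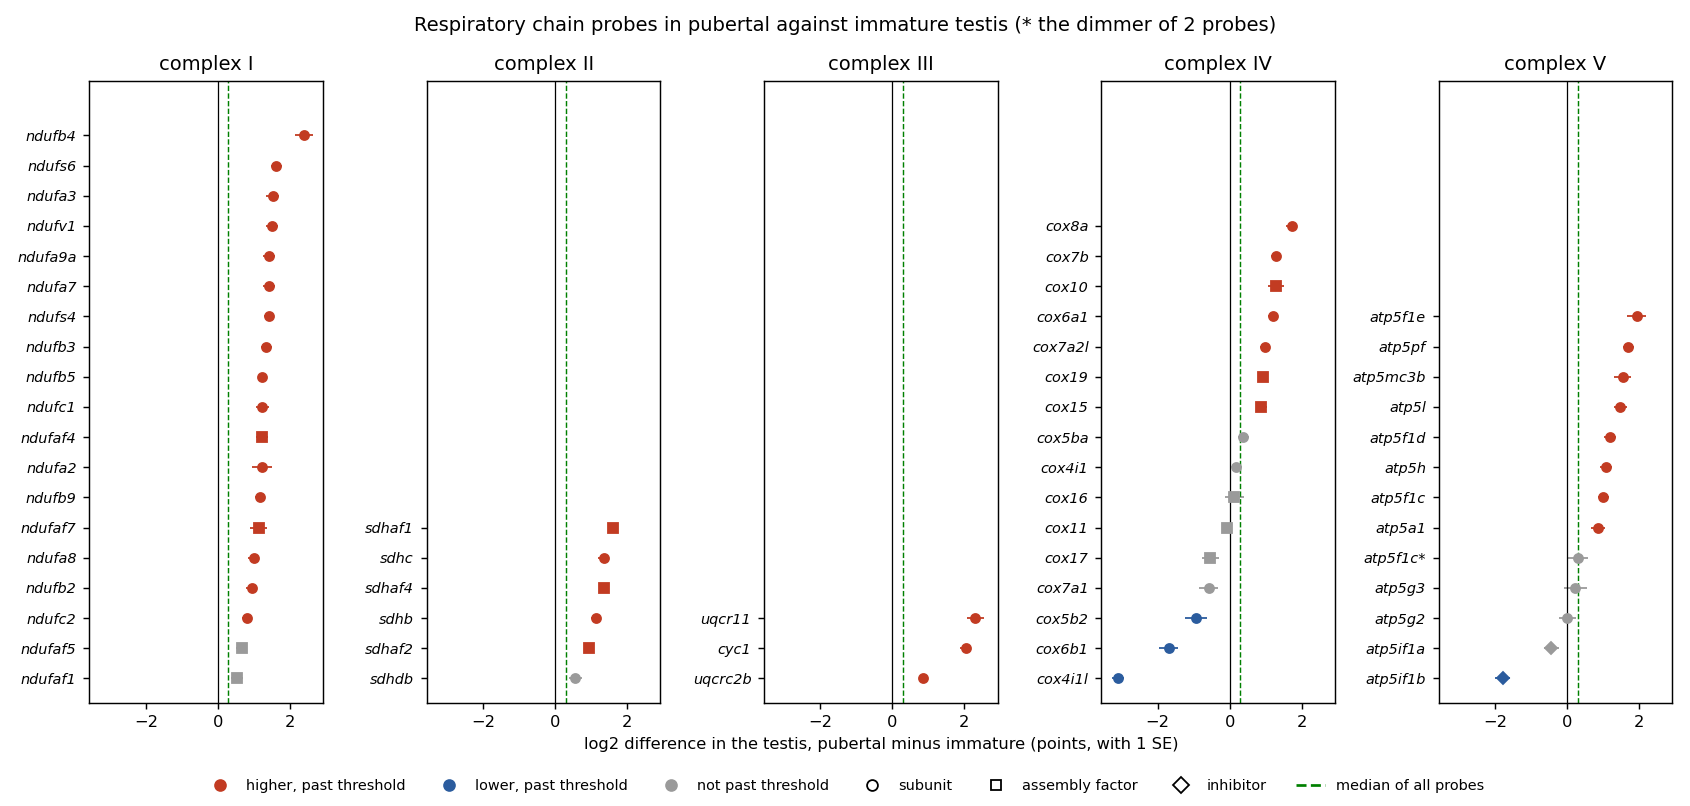
Log2 difference between pubertal (n = 6) and immature (n = 14) testes for 57 of the 58 probes by complex, as points with 1 SE on a linear axis, with symbol shape for subunit, assembly factor or inhibitor and colour for the call. The 15 complex I subunits plotted lie to the right of the green line (the median of all probes, 0.29), whereas complex IV spreads from -3.10 to 1.72.

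Complex I, the NADH dehydrogenase, rose in all its measured subunits. All 16 subunit probes were called higher, with a median of 1.30 and a range of 0.81 (ndufc2) to 2.39 (ndufb4), and 2 of 4 assembly factors joined them, while after quantile normalization the median was 0.69 and 4 of the 16 subunits were called, against 11 in the authors' deposited values. The largest rise of the whole set was that of ndufb4, an accessory subunit of the membrane arm. Its level was 0.93, 1.47 and 2.39 (lowest, median, highest) in immature and 2.56, 4.01 and 4.73 in pubertal testes, a difference of 2.39 ± 0.25 (SE, limma adjusted p = 3.53e-08) or 5.23-fold. The groups did not overlap, and the lowest pubertal value was that of fish 184, which had the lowest GSI of the pubertal fish. The accessory subunits ndufs6 (1.62 ± 0.15, adjusted p = 6.54e-09) and ndufa3 (1.52 ± 0.19, adjusted p = 3.29e-07) rose to a similar degree, again without overlap. Among the subunits that carry the chemistry, ndufv1, which binds NADH, rose by 1.50. Among the assembly factors, ndufaf4 (1.23) and ndufaf7 (1.14) were called higher. The call of ndufaf7 was lost with normexp background correction (0.69) and in the values of the authors (0.73). The values of ndufaf5 (0.67) and ndufaf1 (0.54) stayed under the limit of 0.8 (limma adjusted p = 0.000559 and 0.00455).

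Complexes II and III were represented by few probes, and nearly all were higher, although after quantile normalization none of the 3 complex II subunits was called (sdhb 0.37, sdhc 0.70), and sdhb was not called in the values of the authors (0.68). For complex II, succinate dehydrogenase, the iron-sulphur subunit sdhb differed by 1.13 ± 0.14 (limma adjusted p = 5.41e-07) and the membrane anchor sdhc by 1.35 ± 0.14 (adjusted p = 5.4e-08). The other anchor on the array, sdhdb, differed by 0.56 ± 0.19 and was not called. All 3 of its assembly factors rose: sdhaf1, which helps insert the iron-sulphur clusters, by 1.62 ± 0.14, sdhaf4 by 1.35 and sdhaf2, needed to attach the flavin cofactor, by 0.95. After quantile normalization sdhaf4 (0.70) and sdhaf2 (0.35) were not called, nor was sdhaf2 in the values of the authors (0.60). The catalytic subunit gene sdha was not analysed here. Complex III, which hands electrons to cytochrome c, had the highest median of the complexes, 2.03 over 3 probes. The haem-bearing subunit cyc1 ranged from 2.83 to 4.10 (median 3.35) in immature and from 4.97 to 5.67 (median 5.40) in pubertal testes, with a gap between the groups and a difference of 2.03 ± 0.16 (adjusted p = 1.04e-09). The small subunit uqcr11 rose by 2.30 ± 0.24 (adjusted p = 2.96e-08), from -0.71 to 0.66 in immature to 0.59 to 2.54 in pubertal testes. Its groups overlapped through fish 160 (0.66) and fish 184 (0.59), and without fish 160 the highest immature value was -0.19. The core subunit uqcrc2b differed by 0.86, and it was not called after quantile normalization (0.52) or in the values of the authors (0.46).

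Complex IV differed from the other complexes in that its subunits did not rise as a set. Of its 10 subunit probes 4 were higher, 3 lower and 3 not called. Their median was 0.28, and it was -0.42 after quantile normalization. Over all probes 31.9% were higher and 27.2% lower, with a median of 0.29, so that complex IV as a set lay close to the whole array. The subunits that rose were cox8a (1.72 ± 0.16, limma adjusted p = 9.36e-09), cox7b (1.29), cox6a1 (1.20 ± 0.14) and cox7a2l (0.97 ± 0.13), a relative of cox7a that in mice joins complexes III and IV into supercomplexes. Of these, cox7b (0.55), cox6a1 (0.48) and cox7a2l (0.34) were not called after quantile normalization. In the values of the authors cox6a1 (0.78) and cox7a2l (0.52) were not called. Nor was cox7a2l called among fish of groups A and B alone (0.77). The largest fall among all members was that of cox4i1l, named as a form of subunit 4, which in mammals is a regulatory subunit. It lay between -0.92 and -0.07 (median -0.70) in immature and between -4.36 and -2.98 (median -3.83) in pubertal testes, so that the groups were far apart, with a difference of -3.10 ± 0.17 (adjusted p = 9.43e-12) or 8.59-fold lower. With normexp background correction this difference was -1.72 (3.29-fold), and in the values of the authors -3.66. Its companion cox4i1 had values of 5.20 to 5.97 in immature and 5.10 to 6.33 in pubertal testes, and its difference was 0.18 ± 0.16 (adjusted p = 0.308). Within each array, the log2 ratio of cox4i1l to cox4i1 was -6.80 to -5.55 in immature and -9.82 to -8.95 in pubertal testes. This ratio does not depend on the factor by which each array is scaled, and it shows that the isoforms changed unequally, by -3.29 on average. Its size does depend on the background correction, as with normexp cox4i1l differed by -1.72 and cox4i1 by 0.27. The level of cox4i1l was low in pubertal testes, although well above background on all 6 arrays.

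Among the other subunits of complex IV with isoforms or tissue forms, a pair fell and the rest did not pass the limit. The intermembrane space subunit cox6b1 was 0.65 to 1.62 in immature and -1.99 to 0.59 in pubertal testes, without overlap, and fell by 1.69 (SE 0.26, limma adjusted p = 8.29e-06). The zinc-binding subunit 5b had a pair of probes, cox5b2 and cox5ba. The cox5b2 values in pubertal fish fell into a high pair, 4.37 (fish 184) and 4.16 (fish 190), and 4 lower fish at 1.75 to 3.07, against 3.15 to 4.72 in immature fish. Its difference of -0.94 ± 0.31 (adjusted p = 0.0104) overlapped between groups and was no longer called without fish 245 (-0.77) or fish 202 (-0.70), or within groups A and B (-1.09, adjusted p = 0.114). The other form, cox5ba, differed by 0.38 ± 0.15, under the limit. The subunit gene cox7a1, which in mammals belongs to the heart and skeletal muscle form of the enzyme, had a difference of -0.59 ± 0.25 (adjusted p = 0.0421) that did not reach the limit, but it was called without fish 190 (-0.86), after quantile normalization (-0.95) and in the values of the authors (-1.02). The ratio of cox7a1 to cox7a2l within arrays was -1.33 to 0.11 in immature and -2.67 to -1.11 in pubertal testes, with an overlap at the edges. Among the 6 assembly factors the haem A synthesis enzymes cox10 (1.28) and cox15 (0.88) and the copper-handling cox19 (0.92) rose. Of these, cox15 was not called with normexp (0.74), after quantile normalization (0.72) or in the values of the authors (0.45). The call of cox19 was lost with normexp (0.74) and in the values of the authors (0.54). The copper chaperone cox17 had a value of -0.54 ± 0.24 and was not called, like cox11 and cox16. It was called lower after quantile normalization (-1.035) and in the values of the authors (-0.89).

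In complex V, 8 of 11 subunit probes were higher and none was lower, with a median of 1.08, and after quantile normalization 3 were higher, with a median of 0.48. The rotor subunit atp5f1e (epsilon) differed by 1.94 ± 0.27 (limma adjusted p = 1.72e-06), and atp5pf, the coupling factor of the peripheral stalk, by 1.70 ± 0.15 (adjusted p = 3.37e-09). The level of atp5pf was 4.09 to 4.86 in immature and 5.71 to 6.58 in pubertal testes, while atp5f1e overlapped only through fish 160, which stood at 4.65 when the other immature testes lay between 2.50 and 3.33. Subunits of the catalytic head and its shaft gave smaller differences, 0.85 for atp5a1 (alpha), 1.19 for atp5f1d (delta) and 1.01 for atp5f1c (gamma). The dimmer of the 2 probes of atp5f1c gave 0.30 and was not called, so that these probes disagreed. The c subunit, which forms the rotating ring, had 3 genes with unequal changes. Of these, atp5mc3b rose by 1.55 ± 0.23 (adjusted p = 6.11e-06), whereas atp5g2 (0.00 ± 0.24) and atp5g3 (0.23 ± 0.33) were not called. The within-array ratio of atp5mc3b to atp5g2 was -0.53 to 1.22 in immature and 1.53 to 2.66 in pubertal testes, without overlap. That of atp5mc3b to atp5g3 was 1.49 to 3.71 and 3.63 to 4.35, with an overlap at the edges. Of the 2 inhibitor genes, 1 was called lower. The product of atp5if1b stops ATP synthase from running in reverse, and its level was 5.08 to 5.81 in immature and 2.73 to 4.56 in pubertal testes, a difference of -1.79 ± 0.22 (adjusted p = 3.12e-07). Its paralog atp5if1a had a value of -0.44 ± 0.21 (adjusted p = 0.0725), and it was called lower after quantile normalization (-1.15) and in the values of the authors (-0.85).

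The size of the shift depended on the scaling of arrays, and its sign over the set did not. The median of the members exceeded that of all probes by 0.84 with the 75th percentile, 0.90 with normexp background correction, 0.38 with quantile normalization, 0.73 in the processed values of the authors and 0.84 with median scaling, where the median of all probes itself lay between -0.01 and 0.37. The counts of higher and lower members were 41 and 4, 38 and 4, 15 and 7, 25 and 7, and 41 and 4 in that order, where 31.9 and 27.2%, 15.9 and 12.1%, 28.3 and 28.1%, 17.5 and 27%, and 34.9 and 26.3% of all probes were higher and lower. After quantile normalization the higher members, 15 of 58, were thus no larger a share than the higher probes of the whole array. The share of higher members among those called was 68.2% after quantile normalization and 78.1% in the values of the authors, against 91.1%. Called higher under all 5 scalings were 12 members (ndufb4, ndufs6, ndufv1, ndufaf4, sdhaf1, uqcr11, cyc1, cox8a, cox10, atp5f1e, atp5pf and atp5mc3b), and called lower under all 5 were cox4i1l, cox6b1, cox5b2 and atp5if1b. The share of all probes called under all 5 was not computed, so these counts cannot be set against the rest of the array. Among fish of groups A and B only, with light as a block, 33 members were higher and 3 lower (24.1% and 20.4% of all probes). Scan batch 1 alone gave 41 and 4 (33% and 27.1% of all probes). Scan batch 4 held 1 pubertal fish, 184, and 3 immature ones, so that its value rests on a single fish, assumed to vary like the others. There 28 members were higher and 2 lower (20.6% and 20.6% of all probes).

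Along the GSI, the ratio of gonad to body weight, most members separated at the step from immature to pubertal fish, and some also ranged widely among the pubertal fish. In the main fits no member was called along the GSI within the immature or within the pubertal fish. The median deviation of the members from the immature mean was -0.16 to 0.06 in 13 of the immature fish. It was 0.58 in fish 160, an immature fish in which the median of all probes was -0.36, and 0.80 to 1.38 in the 6 pubertal fish. In order of rising GSI, the pubertal fish stood at 0.89, 1.38, 1.24, 0.94, 1.18 and 0.80. The 4 members that were lower in pubertal testes, chosen by that same comparison, had medians of -0.87, -0.69, -1.78, -2.20, -2.07 and -2.84 in this order. The pubertal fish of lowest GSI, 184 and 190, were thus the closest to the immature fish for these genes. In fish 160 the same 4 genes had a median of 0.19, on the side away from the pubertal fish. Its meiosis and sperm probes averaged -0.80, within the range of the other immature testes. On its array 66.5% of spots stood well above background, the lowest share among the immature testes. Why this fish stood apart was not tested. In a limma fit over the ranks of the 6 pubertal fish no member was called, nor any of the 32492 probes tested (0%). An unadjusted p under 0.05 was found for 28.6% of all probes and for a smaller share of the members, 6 of 58 or 10.3%. These were cox5b2, whose fitted change from the lowest to the highest rank was -2.83 ± 0.52 (adjusted p = 0.0607), cox6b1 (-2.27), uqcr11 (1.86), atp5if1b (-1.84), cox7a1 (-1.69) and atp5if1a (-1.21), named after their values were seen. The same fit called 6 members after normexp correction and 2 after quantile normalization, or 10.3% and 3.45% of the members, where 9.44% and 3.99% of all probes were called. Among the 14 immature testes no member was called by limma or had an unadjusted p under 0.05, and no probe was called (0%).

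**Figure D2:**
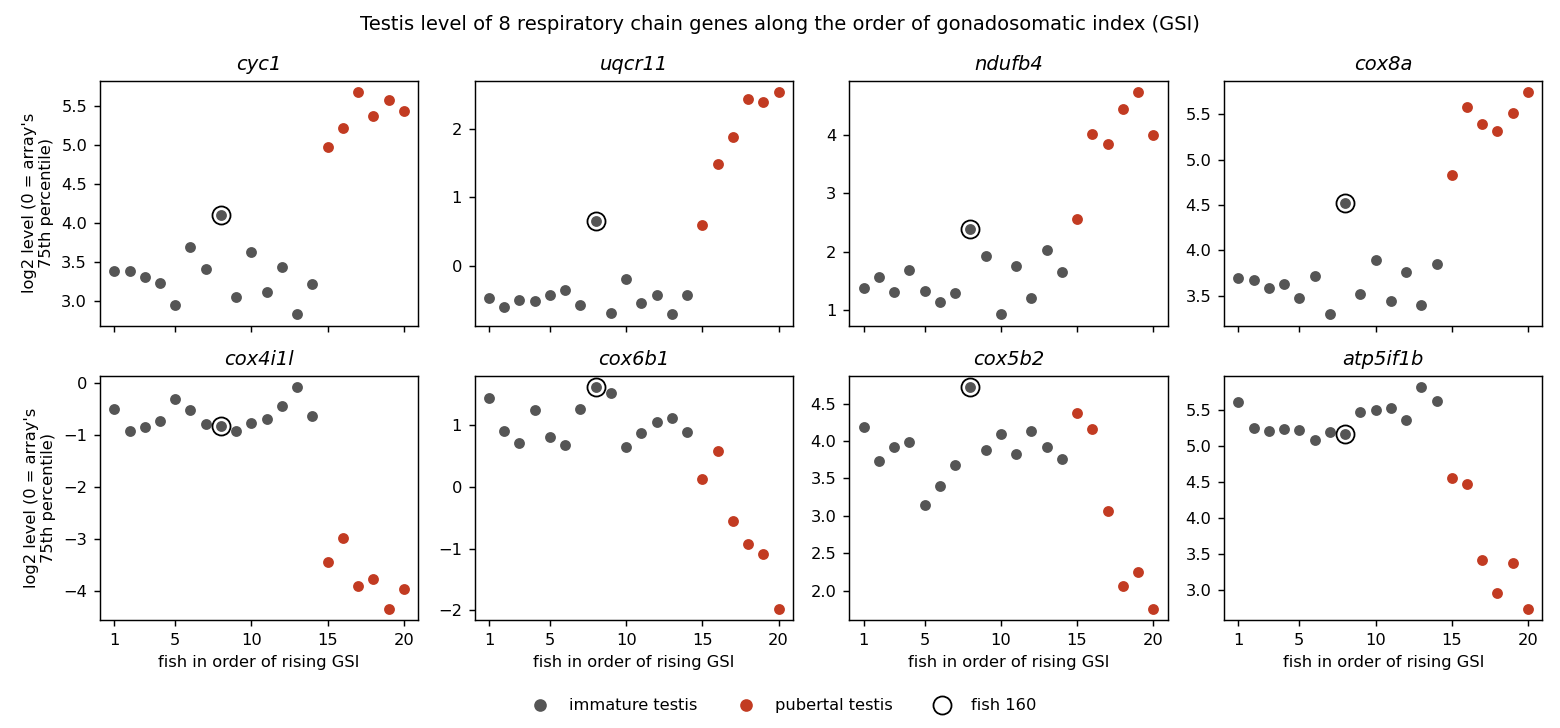
Log2 testis level of 8 genes on linear axes, for the 20 fish in order of rising GSI, with immature fish in grey, pubertal fish in red and fish 160 circled. The upper genes are separated at the step from immature to pubertal fish, with fish 160 above the other immature fish, and cox6b1, cox5b2 and atp5if1b lie lower in the fish of high GSI than in the pubertal fish of lowest GSI.

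In the pituitary and in adipose tissue no member was called as different with the maturity of the testis. In the pituitary (5 pubertal and 14 immature fish), limma called none of the 58 members, where 0.304% of 34824 probes were called. These were 106 probes, and leaving out 1 pubertal fish gave 2 (without fish 211) to 115 and blocking on scan batch 5. The median difference was 0.04. All pubertal pituitaries were scanned in batch 1, and 3 immature ones of group D and all 5 of group E in batch 2. Maturity, light and scan batch were thus partly confounded here. The single member with an unadjusted p under 0.05, where 5.45% of all probes had one, was cox6b1, singled out after its value was seen. Its pubertal pituitaries stood at -1.53, -1.45, -0.45, 0.24 and 0.27, and the immature ones at -3.63 to -0.40 with a median of -2.82, so that the groups overlapped. The difference was 1.91 ± 0.49 (limma, unadjusted p = 0.0009, adjusted p = 0.119). It was called by limma without fish 160 and 250, the immature fish that may be maturing (2.08, adjusted p = 0.0427). That fit called 1.72% of the members and 0.872% of all probes. With the array of fish 184 the difference was 2.81, and with normexp correction 1.12, neither of them called. These values were the ends of the range over 19 alternatives. Those included scan batch 1 alone and groups A and B alone, where cox6b1 was not called. The test named in the methods of the study called this gene as well when p was not adjusted, where 1.52% of all probes were called. It called no member after Benjamini-Hochberg adjustment. In adipose tissue of groups A and B (6 pubertal and 4 immature fish), no member was called by limma or by the test of the methods, none had an unadjusted p under 0.05, where 7.61% of all probes did, and no probe was called (0% of 32891). The median of the members was -0.24, against 0.10 over all probes, with differences of -0.63 to 0.31, and it was -0.06 without fish 188 and -0.39 without fish 250.

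**Figure D3:**
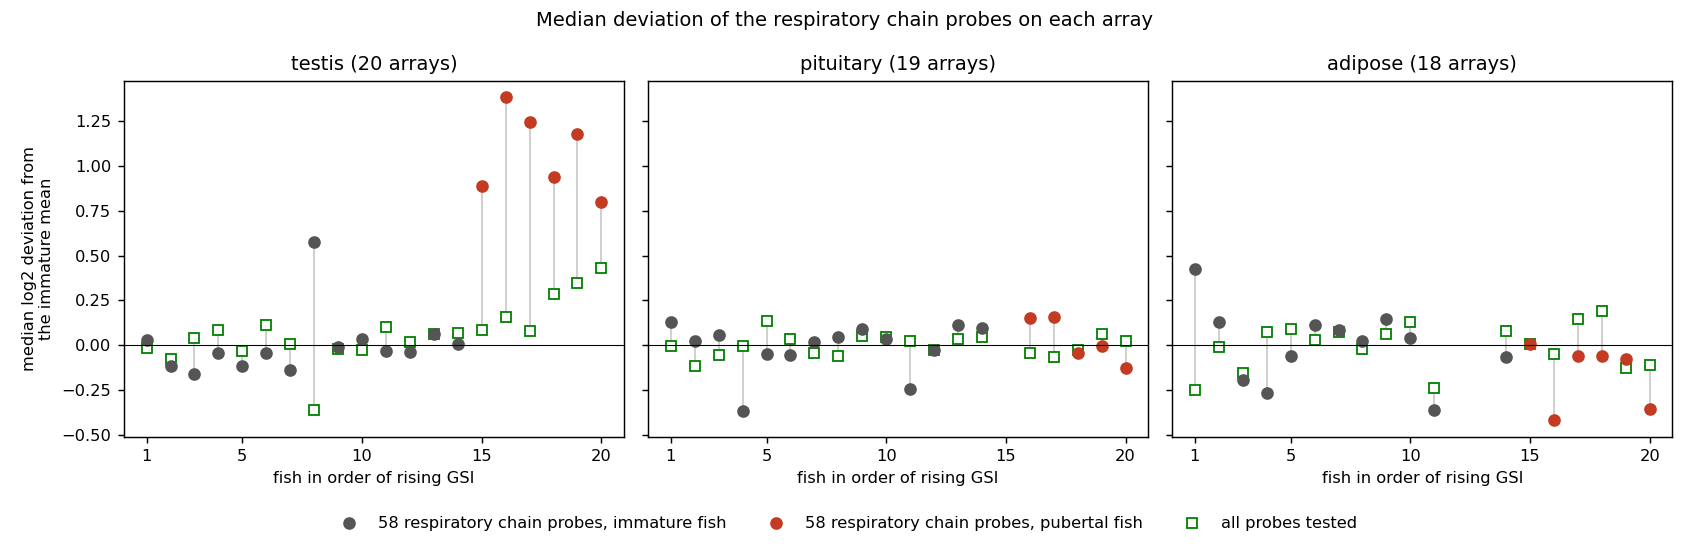
Median log2 deviation from the immature mean of the 58 member probes (filled points) and of all probes tested (green squares) on each array, for fish in order of rising GSI, on a shared linear axis. The 6 pubertal testes stand at 0.80 to 1.38, while pubertal pituitaries stand at -0.13 to 0.16 and pubertal adipose tissues at -0.42 to 0.01.

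The difference between organs was tested as the effect of maturity in testis minus that in pituitary. It was called for 44 members, 39 with a higher and 5 with a lower effect in testis (28.8% and 23.2% of 38272 probes), and for 42 with the array of fish 184, 38 higher and 4 lower (28.2% and 21.5% of all probes). After quantile normalization the counts were 16 and 7 (26.4% and 24.6% of all probes), and in the values of the authors 19 and 7 (14.6% and 23.1%). The largest positive values were those of uqcr11 (2.33 ± 0.27, limma adjusted p = 3.32e-09), ndufb4 (2.28), cyc1 (2.12), cox8a (1.79) and atp5f1e (1.74). The most negative was that of cox6b1, -3.61 ± 0.56 (adjusted p = 9.59e-07), to which a fall in testis and a higher value in the pituitary both contributed. It was followed by cox4i1l (-2.64 ± 0.30), atp5if1b (-1.85), cox5b2 (-0.93) and cox17 (-0.84). Of these, cox17 was not called with the array of fish 184 (-0.77), nor cox5b2 with normexp correction (-0.94), and cox4i1l was -1.49 with that correction.

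**Figure D4:**
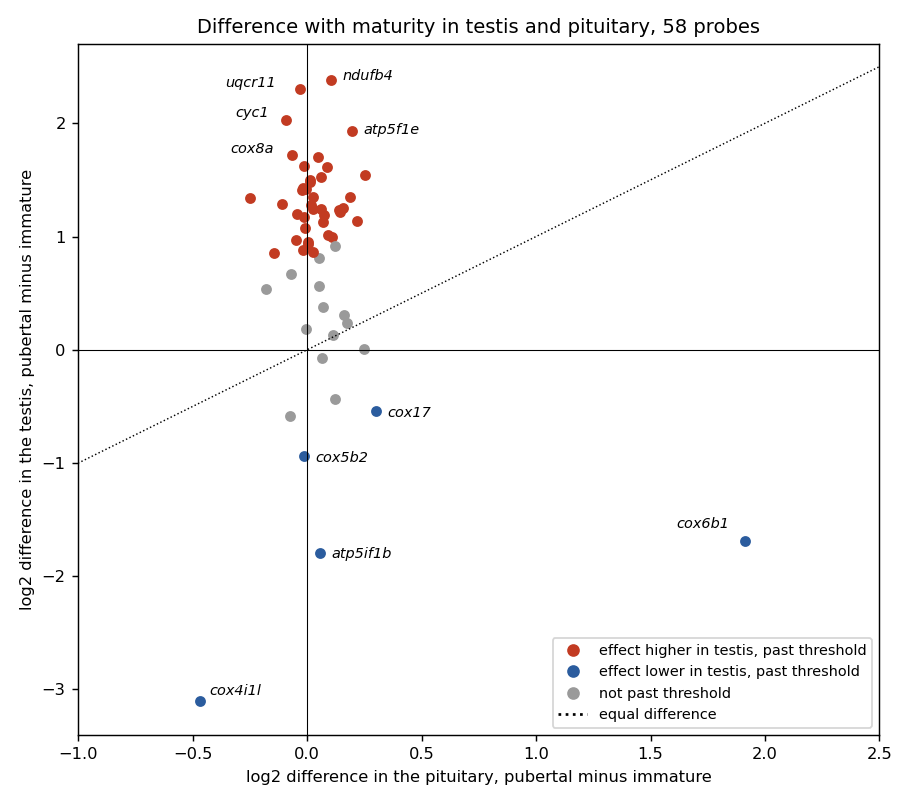
Log2 difference between pubertal and immature fish in the pituitary (horizontal) and in the testis (vertical) for the 58 probes on linear axes, coloured by the test of the difference between organs. Nearly all points lie close to 0 on the horizontal axis, with cox6b1 (1.91) apart, and spread from -3.10 to 2.39 on the vertical axis.

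In each of the 3 comparisons between organs of immature fish, the largest difference among the members was that of a complex IV subunit. Testis against pituitary gave 7 higher and 16 lower members (23.2% and 27.1% of 35321 probes), testis against adipose tissue 5 and 26 (25.3% and 31.3% of 36024 probes), and pituitary against adipose tissue 6 and 8 (26.3% and 25.9%). The subunits cox4i1l, cox5b2, cox6b1 and cox7a1 each had the lowest organ mean in the pituitary. The level of cox6b1 was 1.05 ± 0.32 (mean, SD, n = 14) in testis, -2.50 ± 1.04 (n = 14) in pituitary and 3.26 ± 0.37 (n = 12) in adipose tissue, and the ranges of the 3 organs did not overlap. For cox7a1 the means were 2.11 ± 0.38, -0.98 ± 0.33 and 3.81 ± 0.33 in the same order, again without overlap. On the adipose arrays with muscle markers, B 160 and B 202, cox7a1 stood at 3.69 and 3.53, within the range of the others. The pituitary minus adipose difference was -5.76 ± 0.26 for cox6b1 (limma adjusted p = 1.99e-22) and -4.79 ± 0.14 for cox7a1 (adjusted p = 1.08e-28), the largest among the members. For cox4i1l, testis and adipose tissue shared a range (-0.92 to -0.07 and -1.88 to 1.13), and both lay above the pituitary (-5.24 to -3.55), by 3.84 ± 0.22 and 4.13 ± 0.23. Its pituitary level was close to background, with 17 of 19 arrays well above it, and these differences were 1.80 and 2.13 with normexp correction. In pubertal testes its level of -4.36 to -2.98 overlapped that of the pituitary. For cox5b2 the order was pituitary (0.53 to 2.14), then testis (3.15 to 4.72) and adipose tissue (2.87 to 6.35), and the last pair was not called as different (testis minus adipose -0.10, and 0.57 without the adipose arrays of low correlation). Of the 19 adipose arrays, 4 (A 250, B 211, E 233 and E 240) stood at 5.62 to 6.35 for this gene and the others at 2.75 to 4.26, and all 4 were among the arrays of low median correlation. The comparisons with adipose tissue without the 5 such arrays called 29 and 12 members in place of 31 and 14, or 50% and 20.7% of the members where 56.6% and 51.7% of all probes were called, and the part of tissue composition was not tested.

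The remaining members gave a different order. Complex I subunit ndufb3 was 2.15 ± 0.11 lower in testis than in pituitary (limma adjusted p = 1.15e-20), and ndufa2 1.51 lower. Complex III members uqcr11 (-1.23) and cyc1 (-1.13), which rose in pubertal testes, were among the genes lower in immature testis than in pituitary. Against adipose tissue, immature testes were lower in cox8a (-1.82), atp5f1e (-1.74) and atp5a1 (-1.60) and higher in the assembly factor ndufaf5 (1.86 ± 0.12, adjusted p = 7.99e-17) and in atp5mc3b (1.45). The ring subunit gene atp5mc3b had means of 3.22 ± 0.43 in testis, 2.76 ± 0.33 in pituitary and 1.77 ± 0.50 in adipose tissue, and the ranges of all 3 organs overlapped with their neighbours. The inhibitor atp5if1b had its highest mean in pituitary (5.25 to 6.74), with a pituitary minus adipose difference of 1.54 ± 0.13. Its range in immature testis, 5.08 to 5.81, overlapped that of the pituitary, and the testis minus pituitary difference of -0.69 was not called. The form cox4i1 was within 1 log2 unit in the 3 organs, with means of 5.46, 5.83 and 6.37. After quantile normalization, testis against adipose tissue called 5 higher and 12 lower members (26.8% and 29.4% of all probes).

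**Figure D5:**
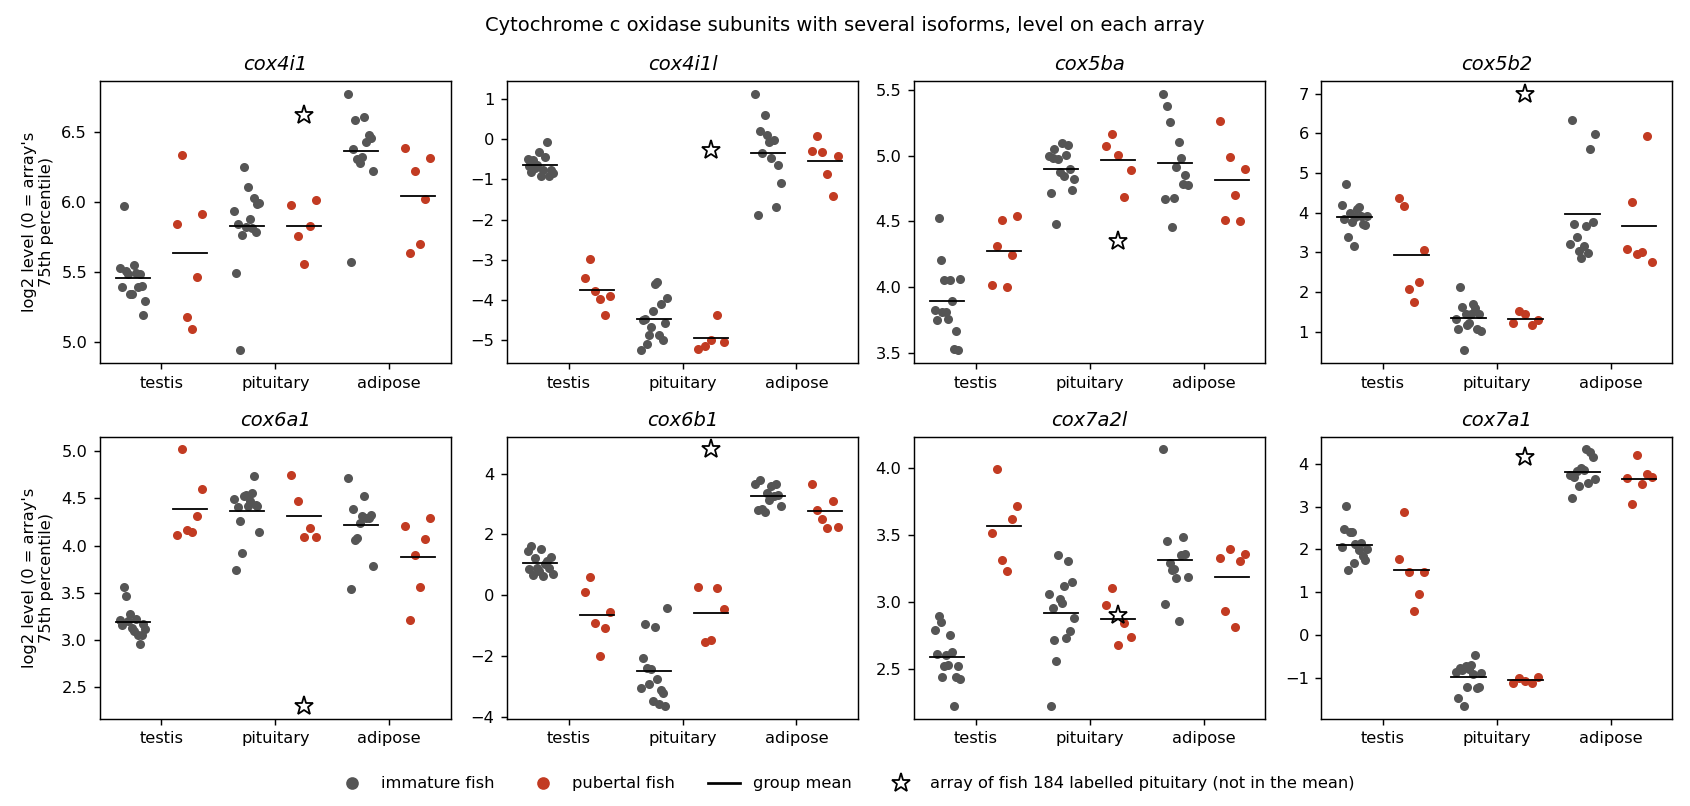
Log2 level of 8 complex IV subunit probes on each array by organ, with immature fish in grey, pubertal fish in red, lines for group means and a star for the array of fish 184 labelled pituitary; each panel has its own linear axis, and levels are not comparable between probes. The pituitary is lowest for cox4i1l, cox5b2, cox6b1 and cox7a1, and the starred array lies far above the other pituitary arrays for these genes.

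Light and diet left no called difference among the members. In limma fits of D against E, both under decreasing light and with a low-fat diet in E, 0 members were called in immature testis, pituitary and adipose tissue (0%, 0.00884% and 0% of all probes), with 0, 3 and 1 members at an unadjusted p under 0.05 (1.13%, 18.8% and 12.5% of all probes). The D minus E value of cox4i1l in adipose tissue, 1.16 ± 0.48 (adjusted p = 0.372), was the single one over the limit with such a p. Immature fish of groups A and B against D and E gave 0 members in each organ (0%, 2.43% and 1.32% of all probes), where the adipose fit also held the array of group E whose stage is not known, with 2, 11 and 5 at an unadjusted p under 0.05 (4.44%, 21.0% and 22.7% of all probes). In the pituitary, sdhaf2 was 2.21 to 2.41 in groups A and B, 2.47 to 2.92 in D and 2.85 to 3.34 in E, so that groups A and B did not overlap with the others. Its difference of -0.55 ± 0.12 (adjusted p = 0.0289), like that of atp5a1 (-0.52 ± 0.13, adjusted p = 0.0396), passed the test but not the limit of 0.8. Scan batches fell together with light here, as all pituitaries of groups A and B were scanned in batch 1 and all of E in batch 2, and a fit that blocked on the scan batch called 0 members and 10 probes in place of 840. The 429 probes called in adipose tissue became 2918 in such a fit, 8 to 4178 when 1 array was left out (without fish 188 and 203) and 29 without the array of unknown stage. In adipose tissue the single call of a member was that of uqcr11 when fish 240 was left out (0.87, adjusted p = 0.0495), against 0.79 with all fish. In testis, 52 of 58 members had positive values in A and B against D and E, with a median of 0.20, and this median was 0.03 without fish 160. Pubertal testes of group A against B gave no call among the members or among all 32492 probes (0%), and no member had an unadjusted p under 0.05. All these comparisons had 3 to 10 fish a group, and differences of less than the limit were not called by design.

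Other mitochondrial genes, taken from lists by function, gave differing counts in testis, to be read against 31.9% higher and 27.2% lower among all probes and a median of 0.29. Like the cell type markers above, these lists were counted with the main scaling only. For the members, the counts of 41 higher and 4 lower became 15 and 7 after quantile normalization (28.3% and 28.1% of all probes). How far the list counts depend on the scaling was not tested. Of 26 assembly factors of the chain outside the symbol rule, 20 were higher and 1 lower in pubertal testes, with a median of 1.11. They included atpaf2, which assembles the ATP synthase head (1.97 ± 0.17, limma adjusted p = 2.23e-09), uqcc3 of complex III (1.60) and surf1 of complex IV (1.50), and the lower one was pet117 (-1.76). Import components were higher in 8 of 16 probes and lower in none, led by timm8b (1.98), and antioxidant genes in 4 of 6, led by the glutaredoxin glrx2 (3.02 ± 0.17). The citric acid cycle and pyruvate dehydrogenase gave 2 higher and 1 lower of 9, with pdk1, a kinase that restrains pyruvate dehydrogenase, at 1.74 and dldh at -2.44. Of 16 probes for glycolysis and lactate, 3 were higher, 7 lower and 6 not called, with a median of -0.46. The phosphofructokinase gene pfkpa (-2.53 ± 0.17, adjusted p = 8.52e-11) and the lactate dehydrogenase gene ldhbb (-2.23) were examples of the lower ones. Coenzyme Q and electron entry gave 4 higher and 1 lower of 9 (median 0.72), biogenesis and mitochondrial DNA 3 and 1 of 6 (0.69), and carriers and uncoupling 1 and 2 of 6 (-0.29). None of these lists had a called probe in the pituitary comparison, where 0.304% of all probes were called, so that lists of this size would hold few or none at that share.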

How the data were processed

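Total RNA of testis, pituitary and adipose tissue was hybridised to one-colour Agilent arrays. The authors deposited scanner output with spot intensity, background-subtracted by Agilent Feature Extraction 12.0.1.1 (gProcessedSignal), per the file headers, and processed values. The processed values were used as an alternative. They were treated as linear intensities, taken to log2 and again scaled to the 75th percentile of each array. Intensity was taken to log2, and the 75th percentile of each array, over all spots that were not controls, was subtracted. Spots of a probe were averaged after removing outlier spots. Every probe of a member was counted, with the brightest one named where a symbol had several. A probe was tested when the arrays on which it stood well above background were no fewer than those of the smaller group, or 7 of 14 and 3 of 6 in the fits along GSI, whose fish order came from the study. Differences were tested with limma 3.58.1 in R 4.3.3 over all probes (adjusted p under 0.05, size over 0.8). In simulated data the fit recovered the size of known differences, but it called a minority of them in the maturity comparison of adipose tissue and none in the fits over pubertal testes alone. No columns of the authors' own comparisons were used.

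Named in the text are the 10 largest rises and falls in testis, the 5 largest in other comparisons, isoform families, sdhb to sdhd and cyc1, and others as stated. The values of 1 member are not reported here, although it is included in the counts. Members and lists were chosen with earlier results of these data known. Replicates are separate fish. Organs of the same fish are pairs by the labels, a pairing used in an alternative fit with fish as a block and not in the main fits, and the deviations of 14, 12 and 12 pairs correlated with medians of 0.112 (testis and pituitary), 0.0774 (testis and adipose tissue) and 0.0983 (pituitary and adipose tissue). Alternatives comprised other background corrections, scalings, filters, batches and samples. The fits within scan batches, without fish 160 and without adipose arrays of low correlation were added after seeing the data. Normalization between arrays assumes similar RNA distributions, which testes of such different stages may not have. The number of arrays limits precision.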

Additional observations from a re-analysis of the deposited data

Results flagged for a closer look

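The effect of maturity differed between testis and pituitary by the interaction test in limma for 44 members. Of these, 39 had a higher and 5 a lower effect in testis, as had 28.8% and 23.2% of 38272 probes. Fewer members, 23 and 26, were called after quantile normalization and in the values of the authors, with the shares of all probes given above. The named values, testis minus pituitary on the log2 scale, were 2.33 for uqcr11, 2.28 for ndufb4, 2.12 for cyc1, 1.79 for cox8a and 1.74 for atp5f1e, and -3.61 for cox6b1, -2.64 for cox4i1l, -1.85 for atp5if1b, -0.93 for cox5b2 and -0.84 for cox17.

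A single fish stood far from the others of its group in 3 of 100 value groups tested for the named genes, where chance gives about 1 in 20. In pubertal pituitaries, cox4i1l was -4.36 in fish 211 and at most -4.98 in the others. In adipose tissue of immature fish of groups A and B, cox5b2 was 6.35 in fish 250 and at most 3.73 in the others, and atp5g3 was 2.25 in fish 188 and at most 1.45 in the others.

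The array of fish 184 labelled pituitary, which entered no main comparison, carried signal outside the range of the other 19 pituitary arrays in 37 of 58 members, 26 above and 11 below, and 22 of these values lay within the range of adipose tissue. The share of all probes outside that range was not computed, so these counts cannot be read as particular to respiratory chain genes. Its levels were 7.0 for cox5b2, 4.80 for cox6b1, 4.16 for cox7a1, -0.27 for cox4i1l and 3.75 for atp5if1b. Its erythrocyte probes averaged 4.39 and its adipocyte probes -0.89. What tissue it held was not tested.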

How the results depend on the processing

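Of 220 values of counts of called members under alternatives, 210 stayed within 1.5 times the main count. Many of these were counts of 0 that stayed 0, in comparisons without a called member in the main fit. Such counts say little about stability, and the changes listed next are the more telling part. Quantile normalization gave 22 members in the testis comparison (45 in the main fit), 23 for the difference between testis and pituitary (44), 17 for testis against adipose tissue (31) and 2 along the GSI of pubertal testes (0). The values of the authors gave 26 for the difference between testis and pituitary, and normexp correction 6 along the GSI of pubertal testes and 1 for A and B against D and E in pituitary (atp5a1, -0.85). In the pituitary, cox6b1 was the 1 member called without fish 160 and 250 (2.08, adjusted p = 0.0427) and by the unadjusted t-test of the methods. That is 1.72% of the members, where these fits called 0.872% and 1.52% of all probes. Without 1 of the pubertal fish at a time, 42 to 45 members were called in testis and 0 in pituitary, with 20298 to 21971 and 2 to 115 of all probes. Leaving out each fish in turn gave 0 to 1 for A and B against D and E in adipose tissue and 0 for maturity in adipose tissue, for the other comparisons of light and along the GSI of pubertal testes, and it was not run along the GSI of immature testes. The cause of these changes was not tested. The fit with fish as a replicate block gave 45 members for the difference between testis and pituitary and 23, 31 and 14 between organs (53.6%, 50.4%, 56.8% and 52.4% of all probes), with consensus correlations of 0.107, 0.058, 0.057 and 0.057, and changed no count by over 1.5 times.

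Among single genes, 21 of 820 values changed sign, all of them for genes not called in the main fit except cox5b2 in testis. In testis, after quantile normalization cox4i1 was -0.49, cox5ba -0.34 and atp5g2 -0.54, and in the values of the authors cox4i1 was -0.16, cox5ba -0.036, atp5g2 -0.35 and atp5g3 -0.16. For atp5g2, leaving out each pubertal fish gave -0.20 to 0.19, blocking on scan batch -0.00502, groups A and B alone -0.17 and scan batch 1 -0.038, and for atp5g3 groups A and B alone gave -0.069. In scan batch 4, with 1 pubertal fish, cox5b2 was 0.23, atp5g3 -0.13 and atp5if1a 0.038. The testis minus adipose value of cox5b2, -0.10 in the main fit, was 0.11 with normexp, 0.33 with quantile normalization, 0.022 in the values of the authors, 0.087 when blocking on scan batch, and 0.57 without the adipose arrays of low correlation. Signal over background limits cox4i1l in pituitary, where 17 of 19 arrays were well above it. The levels of cox4i1l in pubertal testes overlapped those of the pituitary, so the size of its fall there also depends on the background correction.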
